A study of Mus musculus with 2 samples.

Results

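Retinol dehydrogenases and retinoid-handling proteins make, carry and destroy retinoic acid, the active form of vitamin A. Their transcripts were followed here in ovaries of mice with and without the long noncoding RNA H19. The set held 9 genes of the 24421 rows of the table, matched by symbol: the alcohol dehydrogenases Adh1 and Adh7, the retinol dehydrogenase Rdh10, the aldehyde dehydrogenases Aldh1a1, Aldh1a2 and Aldh1a7, the binding proteins Crabp1 and Crabp2, and the degrading enzyme Cyp26b1. The set was selected on the knockout to wild-type ratio of counts in these same 2 libraries, that of Adh7 above all, together with the known roles of the genes. The values are therefore given as a description, and no test is made on them.

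RNA-seq was done on total RNA from whole ovaries of untreated C57BL/6J mice aged 8 weeks, after removal of ribosomal RNA. One library came from wild-type mice (WT). The other came from H19 knockout mice (H19KO), whose label names the allele as H19(Δ3). How many animals each library held is not given in the sources used here, nor is the extent of the deletion or the cycle stage. With 1 library per genotype no difference has a replicate check, no p-value is given, and every comparison describes these 2 libraries rather than the genotypes.

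Retinoic acid is formed in 2 steps. Alcohol or retinol dehydrogenases oxidise retinol to retinaldehyde, and retinaldehyde dehydrogenases oxidise that to retinoic acid. Retinoic acid then binds nuclear receptors, or is handed by binding proteins to CYP26 enzymes that break it down. In the fetal ovary retinoic acid has been linked to the entry of germ cells into meiosis, and in the adult ovary retinoid enzymes are known from granulosa, theca and surface cells.

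The deposited counts summed to 23335131 in WT and 23041225 in H19KO. They may have been rescaled before deposit, so these totals need not show sequencing depth. H19 had 672 counts in WT and 0 in H19KO. If a count of 0 is taken to allow up to 3 counts, the knockout level of H19 was at least 223-fold lower. This bound leaves aside counting error in the WT value. Ovarian marker genes were present in both libraries, including all 10 granulosa and all 8 oocyte markers looked for, but among theca and interstitial markers Insl3 had only 1 count in WT and 2 in H19KO. Scaled counts are given as CPM, the count per 1000000 counts of a library, with library sizes adjusted by the TMM method. Each ratio is H19KO to WT, with the exact 95% binomial interval, which covers counting error only and not differences between animals or preparations.

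Most of the 9 genes had more counts in the knockout library, and 1 of them, Adh7, stood far above the others in the size of its difference. Of the 8 that reached a mean of 1 CPM, Adh7 had an interval wholly beyond 2-fold higher, and 0 had an interval wholly beyond 2-fold lower. Over all 13928 genes at that level, 0.61% lay beyond 2-fold higher and 0.388% beyond 2-fold lower. Intervals lay above equality for 6 of the 8 genes (Adh7, Aldh1a2, Adh1, Cyp26b1, Aldh1a1 and Crabp2), below it for Aldh1a7, and across it for Rdh10. The shares over all genes were 22.2% above and 24% below. The median log2 ratio of the 8 genes was 0.37, beside -0.01 over all genes at that level. Because the genes were chosen with results known, nothing is read from these shares. Crabp1 did not reach 1 CPM. Adh7 passed that level in each library by itself.

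**Figure D1:**
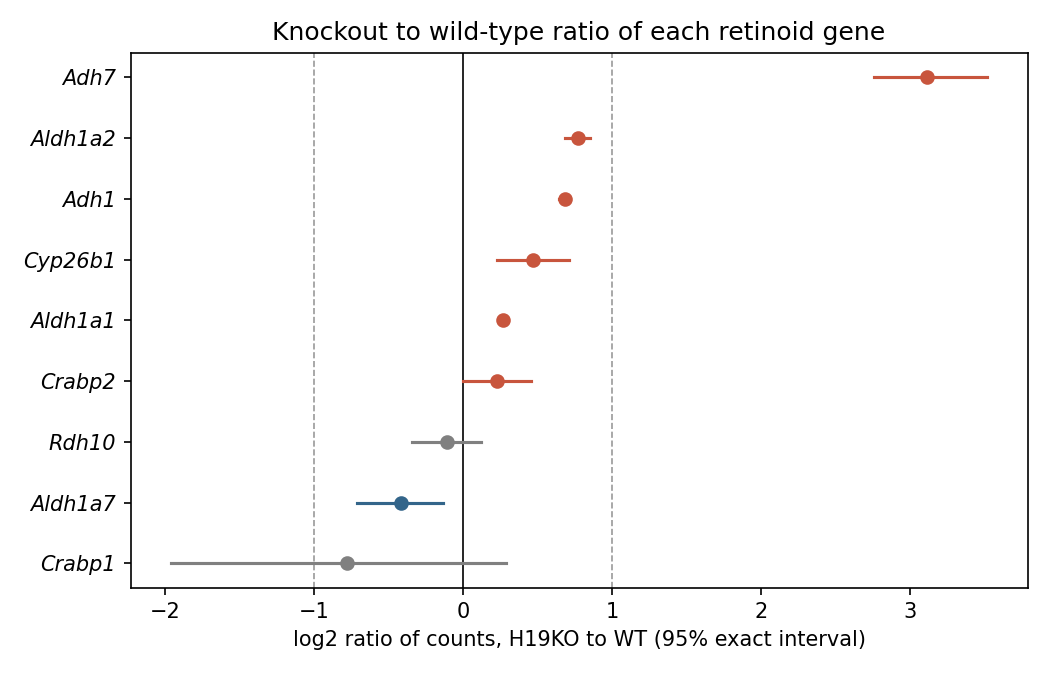
Log2 ratio of counts, H19KO to WT, for the 9 genes on the horizontal axis, with 95% exact intervals of counting error as bars; orange marks intervals above 0, blue below 0 and grey across 0, and dashed lines mark 2-fold. Adh7 sits at 3.12 with its whole bar beyond the 2-fold line, and the other genes lie between -0.77 and 0.77.

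Adh7 encodes the class IV alcohol dehydrogenase, an enzyme with high activity towards retinol that is best known from the stomach and other epithelia. The gene (ENSMUSG00000055301, mm10 chr3:138217760-138233382, plus strand) had 66 counts in WT and 573 in H19KO, or 2.84 and 24.8 CPM. The knockout library was thus high and the wild-type library low, an 8.67-fold ratio (6.76 to 11.4) and a log2 ratio of 3.12 (2.76 to 3.52). It ranked 6 in log2 ratio among the 13928 genes. The central 95% of those genes spanned log2 ratios from -0.67 to 0.79.

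Adh1 encodes the class I alcohol dehydrogenase, which oxidises ethanol and retinol. It lies downstream of Adh7 on the same strand (ENSMUSG00000074207, chr3:138260991-138290698), with its annotated start 43.2 kb from that of Adh7. Adh1 had 8478 counts in WT and 13533 in H19KO, or 365 and 585 CPM. It was higher in the knockout library by 1.61-fold (1.56 to 1.65), a log2 ratio of 0.68, which placed it at rank 467. Adh7 and Adh1 therefore differed in the same direction but by unequal amounts. Within each library, where no scaling between libraries enters, Adh7 made up 0.772% (exact interval 0.598 to 0.982) of the reads on the pair in WT and 4.06% (3.74 to 4.40) in H19KO.

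The next well-expressed gene of the Adh cluster had an interval across equality. Adh5, the formaldehyde-clearing class III enzyme at chr3:138443093-138455499, had 3335 counts in WT and 3297 in H19KO, a log2 ratio of -0.01 (-0.08 to 0.06). The genes between had few or no reads: Adh6a 0 and 0 counts, the pseudogene Adh6-ps1 1 and 4, and Adh4 0 and 1. Adh6b was not analysed here.

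**Figure D2:**
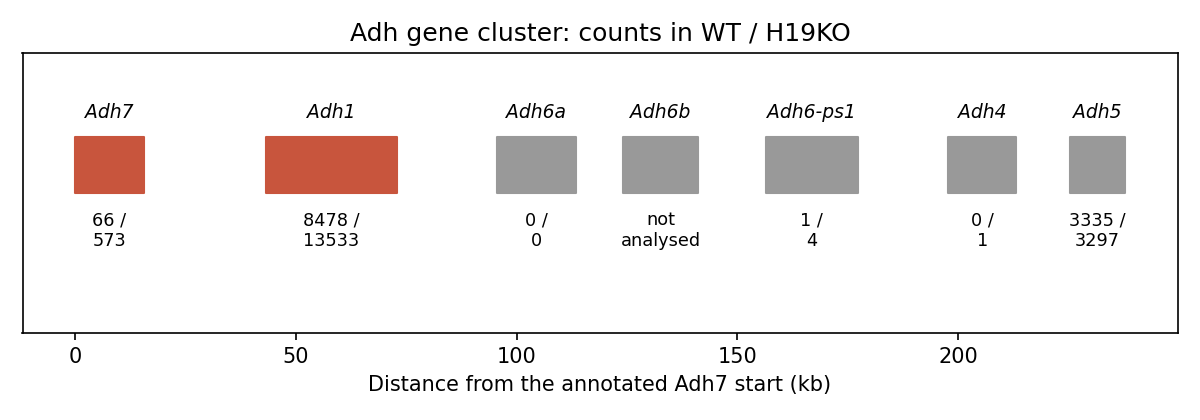
Map of the Adh genes on chromosome 3 by distance in kb from the annotated Adh7 start, each bar a gene to scale, with its counts in WT and H19KO written below; orange marks genes whose interval lay above equality. Adh7 (66 and 573) and Adh1 (8478 and 13533) are at one end, and Adh5 (3335 and 3297) at the other.

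Because these neighbours were both higher in the knockout library, the sequence before each RefSeq start is shown, on GRCm38.p6, the build also called mm10. Both are on the plus strand, written 5′ to 3′ and ended before the GENCODE exon at that start. For Adh1 that exon begins at 138277494, inside the GENCODE gene, whose outermost start, used above, is 138260991. The Adh7 stretch is chr3:138217523-138217759 and the Adh1 stretch is chr3:138277335-138277493. Capitals mark a match to the 6-base core motif of retinoic acid receptors.
Adh7: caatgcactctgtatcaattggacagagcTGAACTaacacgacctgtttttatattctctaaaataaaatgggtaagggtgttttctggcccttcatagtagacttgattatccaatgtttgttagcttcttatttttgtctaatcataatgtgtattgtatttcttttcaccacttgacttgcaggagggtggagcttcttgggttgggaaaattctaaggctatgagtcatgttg
Adh1: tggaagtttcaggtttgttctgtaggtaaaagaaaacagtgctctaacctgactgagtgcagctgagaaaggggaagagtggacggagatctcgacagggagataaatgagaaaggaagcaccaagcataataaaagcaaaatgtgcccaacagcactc

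The core motif was searched on both strands as AGGTCA and as AGTTCA, in either case also with G as the first base. Adh7 held 1 match, AGTTCA on the minus strand at chr3:138217552-138217557, and Adh1 held 0. RefSeq windows were matched for 7 of the 9 genes, in 8 windows since Aldh1a1 has 2 starts. Of these windows 3 held a core motif, for Adh7, Aldh1a1 and Aldh1a7, where 43.7% of all 32851 promoter windows of the same length did. The paired elements DR5 and DR2, which are 2 core motifs in direct repeat, were found in 0 of the 8 windows, and in 0.0974% and 0.268% of all windows. A match is a run of letters and no evidence of binding, and elements outside these windows were not searched.

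Rdh10, the membrane-bound retinol dehydrogenase that carries out much of the retinol oxidation in the embryo, had an interval across equality. Rdh10 (ENSMUSG00000025921, chr1:16105774-16133734) had 332 counts in WT and 306 in H19KO, a log2 ratio of -0.11 (-0.34 to 0.12). The interval leaves room for a difference of up to 1.26-fold lower or 1.09-fold higher.

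Aldh1a1 and Aldh1a2 are retinaldehyde dehydrogenases, which make retinoic acid. Aldh1a1 (ENSMUSG00000053279, chr19:20492715-20643465) had 50457 counts in WT and 60594 in H19KO, or 2170 and 2620 CPM. Its log2 ratio was 0.27 (0.26 to 0.29), a small difference with a narrow counting interval because of the depth of the gene. Aldh1a2 (ENSMUSG00000013584, chr9:71215789-71296243) had 1911 and 3242 counts, or 82.2 and 140 CPM. It was higher in the knockout library by 1.71-fold (1.61 to 1.81), a log2 ratio of 0.77, and ranked 367 of all genes. Aldh1a2 thus had a larger ratio than Aldh1a1, and its share of the reads on the pair was 3.65% (3.49 to 3.81) in WT and 5.08% (4.91 to 5.25) in H19KO.

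Aldh1a7 is a rodent relative of Aldh1a1 that lies beside it on the opposite strand (ENSMUSG00000024747, chr19:20692953-20727562) and is known for aldehydes other than retinaldehyde. It had 234 counts in WT and 174 in H19KO, a log2 ratio of -0.42 (-0.71 to -0.13), the opposite direction to Aldh1a1. This value is uncertain because the genes share sequence. Of the stretches of 76 bases, the read length, in annotated Aldh1a1 transcripts, 47 of 4934 also occur in Aldh1a7, where they make up 2.36% of that gene's stretches. Spread evenly, they would hold 481 of the Aldh1a1 reads in WT and 577 in H19KO, more than the whole Aldh1a7 count in each. How the authors' counting assigned such reads is not given in the sources used here.

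Crabp2, which carries retinoic acid to its nuclear receptors, had 295 counts in WT and 344 in H19KO (ENSMUSG00000004885, chr3:87948666-87953376). Its log2 ratio of 0.23 had an interval of 0.00 to 0.46, which only just lay above equality and under median-of-ratios scaling no longer did. Crabp1, which is known to hold retinoic acid in the cytosol, had 21 and 12 counts (ENSMUSG00000032291, chr9:54764748-54773110). Its log2 ratio was -0.77 with an interval from -1.96 to 0.29, so no direction was detectable at this depth. Cyp26b1, which breaks down retinoic acid, had 241 and 332 counts (ENSMUSG00000063415, chr6:84571414-84593908). It was higher in the knockout library by 1.38-fold (1.17 to 1.64), a log2 ratio of 0.47. The other members of its family had few reads, with 5 and 3 counts for Cyp26a1 and 1 and 3 for Cyp26c1.

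To compare genes with each other, levels were expressed as CPM per kilobase of annotated exon (RPKM). Aldh1a1 was the most abundant, at 440 RPKM in WT and 531 in H19KO, and ranked 34 by mean among all genes at or above 1 CPM. Adh1 followed at 163 and 262 RPKM, then Aldh1a2 at 36.3 and 61.9, and Crabp2 at 9.60 and 11.3. These 4 genes held the same order in both libraries, with intervals of counting error that did not overlap between neighbours.

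The lower part of the order differed between libraries because of Adh7. In WT the order went on with Aldh1a7 at 4.87 RPKM, Rdh10 at 3.43, Cyp26b1 at 1.94, Crabp1 at 1.13 and Adh7 at 0.750. Counting intervals overlapped between Cyp26b1 and Crabp1 and between Crabp1 and Adh7, so the order of these neighbours is not resolved. In H19KO, Adh7 was in place 5 at 6.54 RPKM, above Aldh1a7 at 3.64, Rdh10 at 3.18, Cyp26b1 at 2.68 and Crabp1 at 0.647. There the intervals overlapped between Aldh1a7 and Rdh10 and between Rdh10 and Cyp26b1. Even so, Adh1 remained 40.1 times the level of Adh7 in H19KO, against 218 times in WT. RPKM values depend on the exon length used, and a gene with long rarely used exons is understated.

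**Figure D3:**
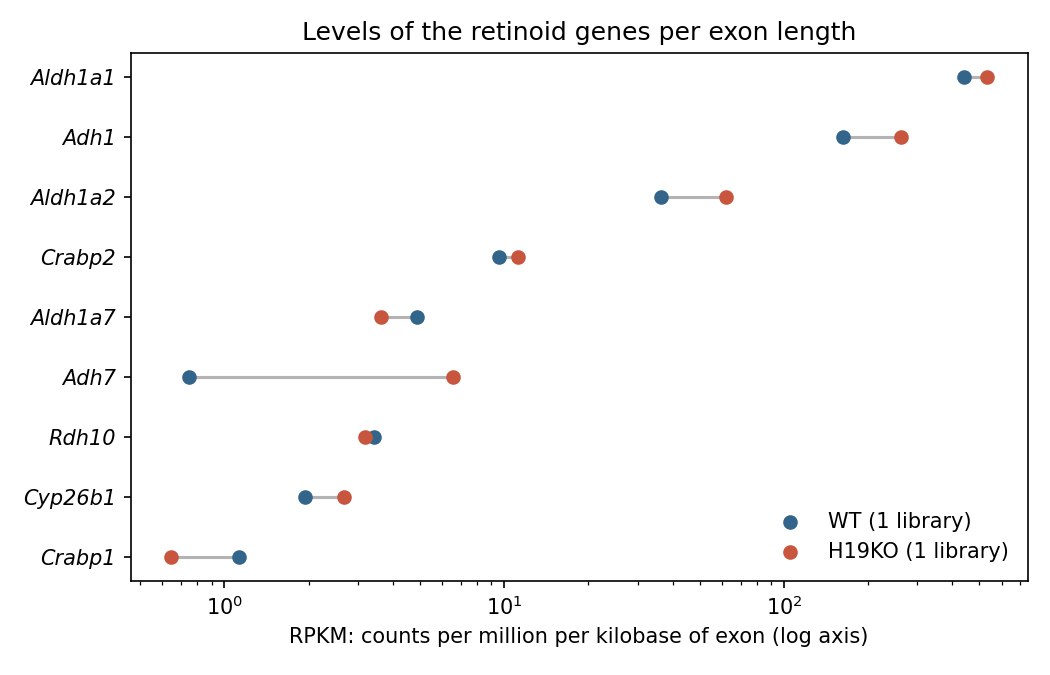
Level of each gene in RPKM on a log axis, with 1 point for the WT library and 1 for the H19KO library. Aldh1a1, Adh1 and Aldh1a2 are at the top in both libraries, and Adh7 moves from 0.750 in WT to 6.54 in H19KO.

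All 9 genes together held 0.266% of counts in WT and 0.343% in H19KO. Aldh1a1 by itself made up 81.3% and 76.6% of that sum, so the sum mostly follows that gene. The 8 other genes summed to 498 CPM in WT and 801 in H19KO, most of it Adh1.

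**Figure D4:**
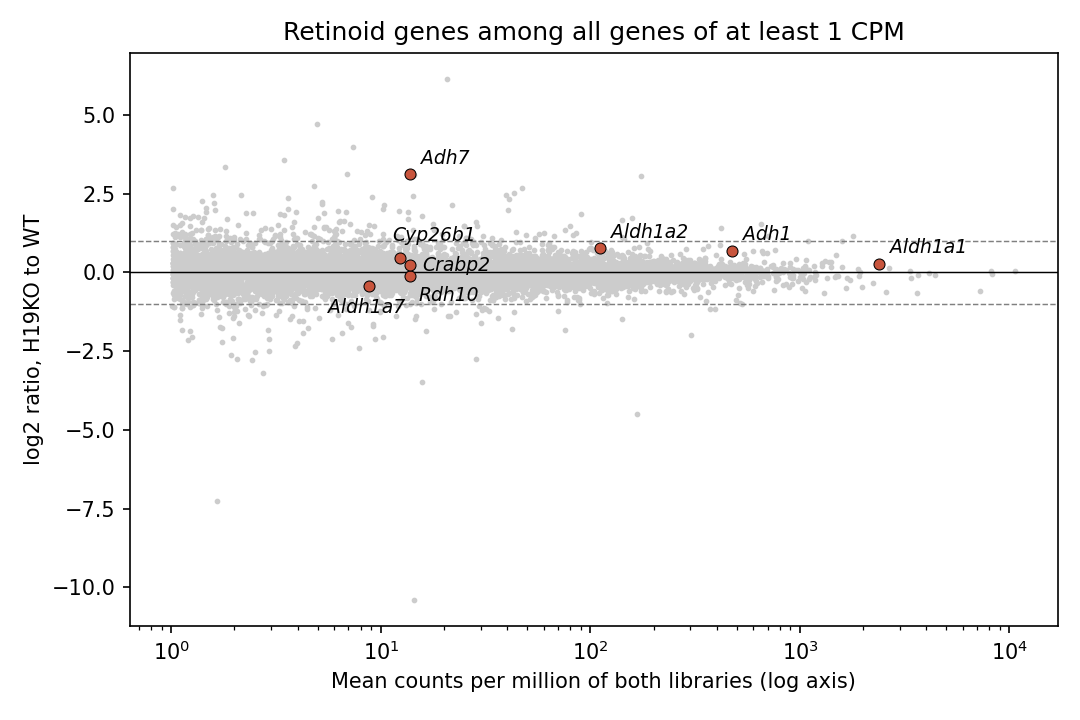
Each grey point is a gene of at least 1 CPM, with its mean CPM on a log axis and its log2 ratio of H19KO to WT on the vertical axis; orange points are the 8 retinoid genes at that level, and dashed lines mark 2-fold. Adh7 at 3.12 lies well outside the cloud of genes of like abundance, Adh1 and Aldh1a2 lie towards its upper edge, and Rdh10 and Crabp2 lie within it.

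The rest of the retinoid pathway was read from 6 lists, which held 64 further genes, of which 36 reached 1 CPM and are called measured. Of the 36, 0 lay beyond 2-fold in either direction, 14 had an interval above equality, 8 below and 14 across it. Their median log2 ratio was 0.02. Over all 13928 genes at that level, 0.61% lay beyond 2-fold higher and 0.388% beyond 2-fold lower, 22.2% above equality and 24% below. The count of 0 is close to the first 2 shares, so nothing is read from it beside Adh7. The same shares stand beside each list below.

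Enzymes that convert retinol and retinaldehyde into each other mostly had ratios close to 1. Of 11 measured genes, 2 had an interval above equality, 1 below and 8 across, with a median log2 ratio of 0.01. Dhrs3, a retinaldehyde reductase, had 3541 counts in WT and 3484 in H19KO and a log2 ratio of -0.02 (-0.08 to 0.05). Dhrs7, a short-chain dehydrogenase, had 1267 and 2073 counts (0.72, 0.62 to 0.82). The retinol dehydrogenase Rdh1 had only 39 and 61 counts (0.65, 0.05 to 1.27), the retinaldehyde reductase Rdh11 had 970 and 854 (-0.18, -0.31 to -0.04), and Dhrs4 had 518 and 578 (0.17, -0.01 to 0.34).

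Among other enzymes that can oxidise retinaldehyde, 3 of 4 measured genes had an interval above equality. These were the aldehyde oxidases Aox1, with 715 and 893 counts (log2 ratio 0.33, 0.19 to 0.47), Aox3, with 366 and 447 (0.30, 0.09 to 0.50), and Aox4, with 40 and 76 (0.93, 0.36 to 1.52). Aldh1a3, the remaining retinaldehyde dehydrogenase of the Aldh1a group, had 257 counts in each library.

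Transport, uptake and storage genes went both ways, with 4 of 8 intervals above equality and 2 below, and a median log2 ratio of 0.22. The retinol uptake receptor Stra6 had 472 counts in WT and 681 in H19KO, a log2 ratio of 0.54 (0.37 to 0.71), and Lrat, which stores retinol as esters, had 1654 and 1866 (0.18, 0.09 to 0.28). Bco2, which cleaves carotenoids, had the highest ratio of these genes, with 87 and 191 counts. Its log2 ratio was 1.14 (0.77 to 1.53), so the interval reached below 2-fold. On the lower side were Fabp5, which can carry retinoic acid, at -0.27 (-0.40 to -0.14), and the hormone-sensitive lipase Lipe, which can hydrolyse retinyl esters, also at -0.27 (-0.42 to -0.13). The esterifying enzyme Dgat1 had 407 and 405 counts.

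Retinoic acid receptors were split. Of the 5 measured receptors, 4 had an interval below equality. Rara had 1320 counts in WT and 979 in H19KO, a log2 ratio of -0.42 (-0.54 to -0.30), Rarg had one of -0.28 (-0.41 to -0.15), Rxrb one of -0.19 (-0.34 to -0.05) and Rxra one of -0.11 (-0.19 to -0.02). Rarb, whose own gene is a known target of retinoic acid, went the other way from a low level, with 55 and 102 counts (0.89, 0.41 to 1.40). Rxrg had 0 counts in both libraries.

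Among 13 measured genes known to respond to retinoic acid the median log2 ratio was 0.13. Of the 13, 8 had an interval above equality, 1 below and 4 across. The gene below was Nrip1, a nuclear receptor corepressor, at -0.26 (-0.31 to -0.20). Some of the list, including Rarb, Stra6, Lrat and Dhrs3, are also in the lists above. The homeobox gene Meis2 had a log2 ratio of 0.27 (0.13 to 0.42), the transglutaminase Tgm2 one of 0.06 (0.01 to 0.11) and the chemerin gene Rarres2 one of 0.13 (0.05 to 0.20). The meiotic gatekeeper Stra8 had 1 and 3 counts and Cyp26a1 5 and 3, too few for a direction.

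Aldehyde dehydrogenases outside the Aldh1a group went in both directions. An interval wholly beyond 2-fold was found for 0 of them, and for 0.61% (higher) and 0.388% (lower) of all genes. Of 13 measured genes, 7 had an interval above equality and 3 below, with a median log2 ratio of 0.20. Aldh1l2, a mitochondrial enzyme of folate metabolism, had 99 and 193 counts (0.97, 0.61 to 1.34). Aldh2, the mitochondrial acetaldehyde-clearing enzyme, had 6043 and 4941 counts (-0.28, -0.34 to -0.23) and Aldh1b1 1085 and 835 (-0.37, -0.50 to -0.24). Aldh3b1 was at -0.23, Aldh5a1 at 0.31, Aldh6a1 at 0.28 and Aldh9a1 at 0.27.

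**Figure D5:**
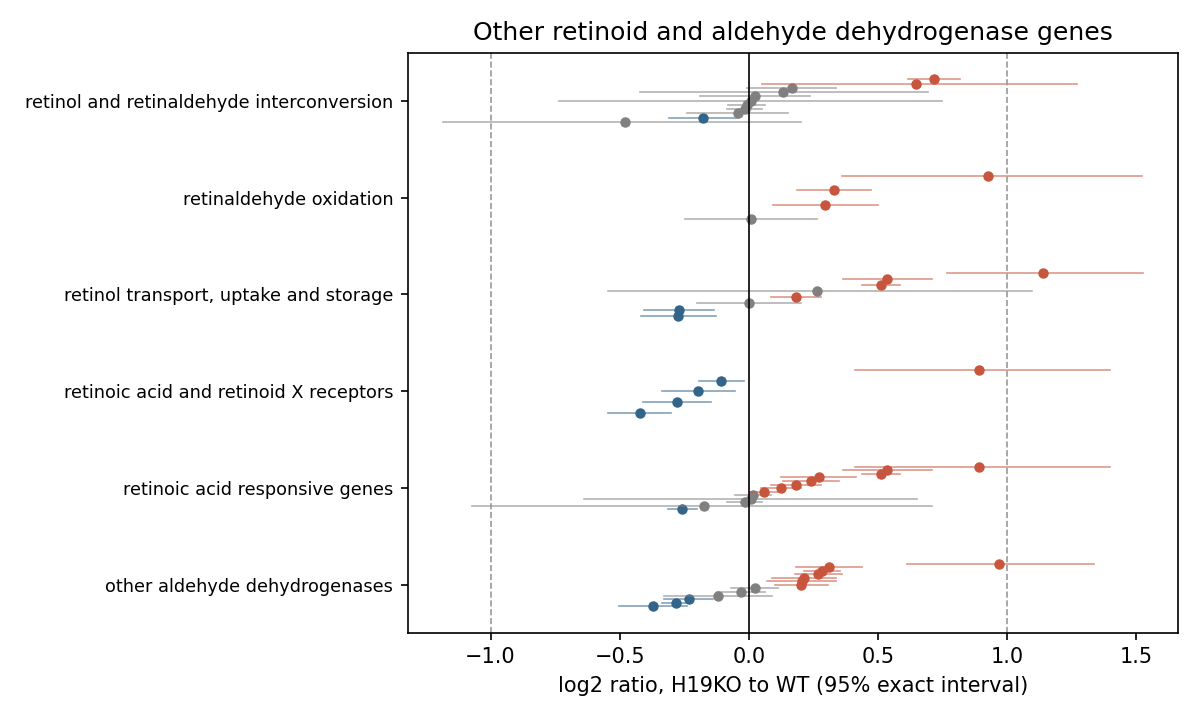
Log2 ratio, H19KO to WT, of each gene of at least 1 CPM in 5 retinoid lists and the list of other aldehyde dehydrogenases, with 95% exact intervals; orange marks intervals above 0, blue below 0 and grey across 0, and dashed lines mark 2-fold. Genes in 2 lists are drawn in both, and each interval includes values within 2-fold.

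Markers of several ovarian cell types also differed between the libraries. In whole tissue, fewer cells of a type and less RNA per cell cannot be told apart. Stromal fibroblast markers had intervals above equality for 6 of 7 genes, with a median log2 ratio of 0.45 and a summed level of 2816 CPM in WT and 3944 in H19KO. For surface epithelium and mesothelium, 5 of 10 were above and 0 below, with a median of 0.24 and sums of 275 and 317 CPM. Smooth muscle markers were above in 5 of 5, with sums of 1358 and 1696 CPM. Granulosa markers were below in 9 of 10, with a median of -0.48 and sums of 5109 and 4035 CPM, luteal markers below in 5 of 6 and oocyte markers below in 7 of 8. Macrophage markers were above in 5 of 6, and endothelial markers below in 4 of 6. Theca and interstitial markers were above in 2 and below in 4 of 6. Over all genes of at least 1 CPM, 22.2% were above and 24% below. Intervals are narrower for abundant genes, as many of these markers are, so the counts are not directly comparable with those shares. Wholly beyond 2-fold lower were the granulosa marker Cyp19a1, at -1.60 (-1.78 to -1.42), and the theca marker Cyp17a1, at -1.98 (-2.04 to -1.92). The log2 ratios of Adh1 and Aldh1a2 were 0.68 and 0.77, and that of Adh7 was 3.12. The highest measured marker of these lists was the stromal Lum at 0.69 (0.60 to 0.77). Next was the theca and interstitial marker Mgarp at 0.68 (0.64 to 0.71). Other markers of both lists went lower, down to -0.08 for the stromal Tcf21 and -1.98 for Cyp17a1. The part of the cell mix in the retinoid genes' ratios was not tested.

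Tissues that could adhere to an ovary or that are known for Adh7 were also read. Squamous and gastric epithelium markers summed to 0.430 CPM in WT and 1.17 in H19KO, with 0 of 8 genes measured and Gkn1 and Tff1 at 0 counts in both. The highest in H19KO was Muc5ac, with 5 and 16 counts (1.59, 0.17 to 3.49). Adrenal medulla markers summed to 3.31 and 3.29 CPM. Adrenal cortex markers summed to 150 and 254 CPM, with 2 of 8 measured and both above equality. Mrap made up 148 CPM of that sum in WT and 211 in H19KO, and Cyp11b1, with 13 and 945 counts, 0.559 and 40.9 CPM. Among those below 1 CPM, Akr1b7, with 9 and 36 counts, had an interval above equality (1.95, 0.93 to 3.25). Nov, with 22 and 6 counts, had one below it (-1.78, -3.46 to -0.52). The remaining genes had few counts in both libraries, with 2 and 6 for Cyp21a1, 3 and 1 for Mc2r, 3 and 1 for Agtr1b and 0 and 1 for Cyp11b2. Oviduct markers summed to 16.5 and 19.4 CPM, with 1 of 3 measured genes above equality, Ovgp1, at 33 and 134 counts, and 0 below. Sox17, at 216 and 178 counts, and Cfap126, at 105 and 111, were across it. Below 1 CPM were Foxj1, with 11 and 3 counts, Pax8, with 9 and 9, and Tekt1, with 9 and 14. Uterine markers summed to 18.9 and 22.5 CPM, with 1 of 3 above, Lcn2, at 72 and 223 counts. The 2 below were Msx1, at 56 and 29 counts, and Ltf, at 301 and 249, and Hoxa11 was at 0. Adipocyte markers summed to 18.1 and 15.6 CPM, with 2 of 6 measured. Fabp4, at 65 and 96 counts, was above equality, and Plin1, at 341 and 253, below it. The others had few counts, with 5 and 3 for Adipoq, 1 and 0 for Lep, 3 and 8 for Cidec and 6 and 0 for Retn. Of these, Retn had an interval below equality. The part of the squamous and gastric, adrenal, oviduct, uterine and adipocyte markers in the Adh7 ratio was not tested.

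Overlapping genes could add reads to a row where the counting ignored strand, and the strand setting is not given in the sources used here. Adh7 shares 108 exon bases with the antisense gene 0610031O16Rik, which had 2 counts in each library. Adh1 shares 136 exon bases with the antisense gene Gm16559, which was not analysed here. For the other 7 genes, 0 exon bases were shared with another annotated gene.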

How the data were processed

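The authors deposited whole-number counts per gene symbol, 1 column per library. The submitters' processing notes name the mm10 build, STAR 2.5.0a, Cufflinks 2.2.1 and, as a further tool, DESeq2 1.0.0, with no roles. The counting tool is not given in the sources used here, nor are the annotation and the use of strand. The median ratio of counts was exactly 1 over 17904 genes with counts in both libraries. The median-of-ratios factor, which with 2 libraries follows from that ratio, was 1.00 for each library. The counts were deposited under a name that includes DESeq2. Whether values were rescaled and rounded before deposit was not tested. If they were, the intervals would be off by an amount that depends on the unknown original depths.

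Library sizes were scaled by TMM (edgeR 4.0.16) over all 24421 rows. To each scaled count 0.5 was added before log2 ratios were taken, and intervals are exact conditional binomial (Clopper-Pearson) at 95%; intervals of levels are exact Poisson. A gene was measured at a mean of at least 1 CPM, and was beyond 2-fold when its whole interval was. These are rules of size, not tests. Median interval width was 1.53 log2 units at 1 to 2 CPM, 0.45 at 10 to 20 CPM and 0.13 over 100 CPM. Coordinates, exon lengths and overlaps are from GENCODE M21, in which 23309 rows matched by symbol, and promoters from RefSeq. The scripts were tested on simulated data. The genes and lists were chosen with earlier results of these data known. Named genes were the 9 genes, the Adh cluster, all receptors, and from each list those beyond 2-fold, up to 4 highest per length and up to 4 of largest ratio among intervals that exclude equality. Genes outside that rule (Nrip1, Stra8, Cyp26a1, Cyp26c1 and marker genes) were named after their values were seen. Some genes of the lists are counted but not reported by name. No genes of like pattern are named, since 2 libraries give 1 ratio per gene. Alternatives were other scalings, filters and limits. Computation used Python 3.11.15, scipy 1.17.1, pandas 2.3.3, matplotlib 3.10.9, R 4.3.3 and DESeq2 1.42.0.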

Additional observations from a re-analysis of the deposited data

How the results depend on the processing

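Of 88 values recomputed under the alternatives, 87 kept their direction and stayed within a set limit. That limit was 1.5 times for counts and the counting interval for ratios of single genes. For the median it was the wider counting margin among the middle genes. The other scalings changed library sizes very little, so most values had little room to move and this tally says little. The exception followed from the looser rule itself: with a limit of 1.5-fold, 3 of the genes were higher (Adh7, Adh1 and Aldh1a2) in place of 1. Adh7 kept its whole interval beyond 2-fold under the 3 other scalings and both other filters, and beyond 4-fold under TMM scaling. Under median-of-ratios scaling, 5 genes had an interval above equality in place of 6, without Crabp2. The median log2 ratio of the genes was 0.27 with no minimum CPM, where Crabp1 enters, and 0.36 to 0.38 under the other scalings. No paired analysis was possible because there was only 1 library for either genotype, so no replicate could be left out either. Depth limits Crabp1, and the sequence shared with Aldh1a1 limits Aldh1a7.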
